A study of Mus musculus with 14 samples.

Results

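The genes described here are 8 markers of hilar mossy cells, Calcrl, Drd2, Nmb, Ajap1, Csf2rb2, Glipr1, Iyd and Bok, taken by gene symbol from the 55291 rows of each count table. All 8 had enough counts to be tested, among 22150 tested genes. RNA sequencing was done on dentate gyri cut with a scalpel from mouse organotypic cultures that hold the entorhinal cortex and the hippocampus together. 8 libraries came from a gene-targeted mouse line that lacks the amyloid precursor protein (APPko, APP-/-) and 6 from C57BL/6J wildtype cultures (APP+/+), sliced at postnatal day 4 to 5 in both genotypes and matured for at least 18 days. Each library holds the polyadenylated RNA of 1 dentate gyrus. The labels name the replicates as biological but tie none of them to an animal, so p-values measure the spread between these cultures. The labels do not say whether the wildtype cultures were littermates of the APPko cultures.

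Mossy cells are the large glutamatergic neurons of the hilus, the layer enclosed by the granule cell blades of the dentate gyrus. They receive the large mossy fibre terminals of granule cells and send axons to the inner molecular layer, where they contact granule cells and inhibitory interneurons. They are known for their loss after seizures and ischaemia. None of the 8 genes is expressed in mossy cells alone: Calcrl is also a vascular gene, Csf2rb2 belongs to a cytokine receptor family of myeloid cells, and Bok is widely expressed. Levels were measured in whole dentate gyri, in which fewer mossy cells and less RNA per mossy cell cannot be told apart.

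App itself, the check of the labels, averaged 214 ± 17.9 CPM (counts relative to the library total, scaled between libraries by the TMM method) in APPko and 809 ± 131 CPM in wildtype (SD, n = 8 and n = 6). It was called lower in APPko by edgeR's quasi-likelihood test, with a log2 change of -1.92 and an adjusted p of 9.2e-09. Library totals ran from 20298058 to 31031126 counts in APPko and from 16686909 to 29713323 counts in wildtype. TMM factors were at least 0.976 except in wildtype libraries 2 and 3, where they were 0.852 and 0.847. The column headers end in f or m, with 7 f and 1 m libraries in APPko against 3 f and 3 m libraries in wildtype.

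No mossy cell marker passed the test between genotypes, and the estimates went in both directions. None of the 8 was called by edgeR at an adjusted p of 0.05, against 2.35% of all tested genes called in either direction, 0.944% called higher in APPko and 1.41% called lower. The estimates were positive for 5 markers and negative for 3, and their median log2 change was 0.086, beside -0.013 for all tested genes, of which 48.3% had a positive estimate. Bok and Calcrl had an unadjusted p under 0.05, in opposite directions, where 20.4% of all tested genes had one. The CPM ranges of the genotypes overlapped for all 8 markers, and 1.12% of tested genes had ranges that did not overlap. DESeq2 called 1 of the 8, Bok, where it called 7.97% of all tested genes. With so few markers these counts do not set them apart from the other tested genes.

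**Figure D1:**
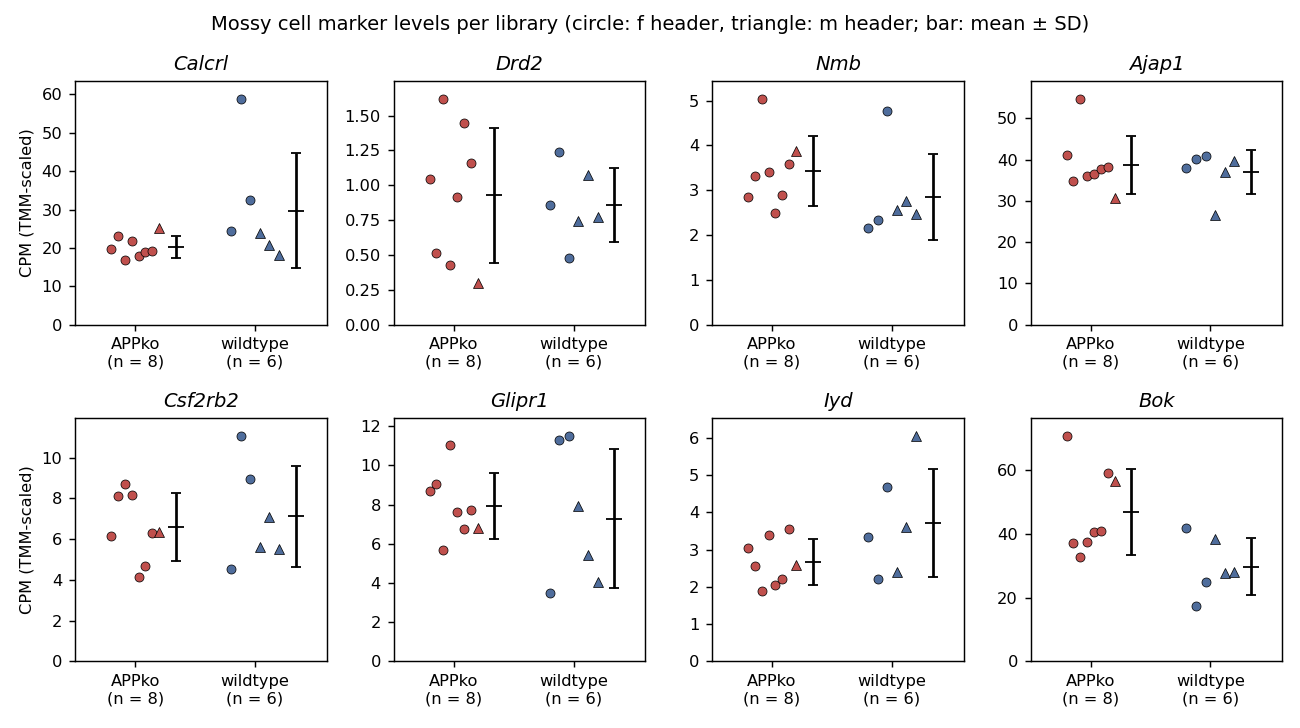
CPM (TMM-scaled) of the 8 markers in each library, with APPko at the left and wildtype at the right of each panel; circles are libraries with f headers, triangles those with m headers, and bars give the mean ± SD (n = 8 and n = 6). Every panel shows overlapping genotypes; wildtype library 2 stands alone at 58.8 CPM for Calcrl, and 3 APPko libraries lie above all wildtype libraries for Bok.

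The plot of levels per library shows markers of very different abundance. Compared per unit of exon length (TPM, the share of length-corrected counts), Bok and Ajap1 were the most abundant in both genotypes and Drd2 the least. Bok averaged 69.3 ± 20.02 TPM in APPko and 43.1 ± 14.6 TPM in wildtype, and Ajap1 34.7 ± 7.67 TPM in APPko and 31.9 ± 4.35 TPM in wildtype. Glipr1, Nmb and Calcrl formed a middle group. Glipr1 stood at 13.9 ± 3.07 TPM in APPko and 12.1 ± 5.17 TPM in wildtype. Nmb stood at 11.8 ± 3.03 TPM in APPko and 9.37 ± 2.73 TPM in wildtype, and Calcrl at 11.3 ± 1.40 TPM in APPko and 15.7 ± 6.84 TPM in wildtype. Below them came Iyd, with 4.45 ± 1.04 TPM in APPko and 6.07 ± 2.52 TPM in wildtype, and Csf2rb2, with 3.78 ± 1.04 TPM in APPko and 3.90 ± 1.11 TPM in wildtype. Drd2 averaged 0.997 ± 0.537 TPM in APPko and 0.891 ± 0.264 TPM in wildtype. Neighbours in this order that did not overlap in APPko were Ajap1 over Glipr1, Calcrl over Iyd and Csf2rb2 over Drd2. In wildtype only Csf2rb2 and Drd2 did not overlap, and the order of Calcrl, Glipr1 and Nmb was not the same in the genotypes.

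Among the receptors, Calcrl encodes the calcitonin receptor-like receptor, which forms the receptor for CGRP with the accessory protein RAMP1 and receptors for adrenomedullin with RAMP2 or RAMP3 (chr2:84330626-84425411 in GRCm38, minus strand). Its lowest, median and highest levels were 16.8, 19.4 and 25.2 CPM in APPko, against 18.0, 24.1 and 58.8 CPM in wildtype. The ranges overlapped, with 2 of 8 APPko libraries below all wildtype libraries and 1 wildtype library far above the rest. The mean was 20.3 ± 2.81 CPM in APPko and 29.7 ± 15.1 CPM in wildtype, a log2 change of -0.55 (SE 0.21, 95% interval -0.98 to -0.12) that missed the threshold (edgeR adjusted p = 0.14). Most of this difference came with wildtype library 2: without it the log2 change was -0.24 (edgeR adjusted p = 0.46), and without wildtype libraries 2 and 3 it was -0.093 (edgeR adjusted p = 0.83).

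Within libraries with f headers alone, which keep wildtype libraries 2 and 3 as 2 of 3 wildtype libraries, Calcrl was called lower in APPko with a log2 change of -0.98 (edgeR adjusted p = 0.0056). It was the only marker called in that fit, which called 15.6% of all tested genes. The m headers hold 1 APPko library, which at 25.2 CPM had the highest Calcrl level of the 8. The difference of the genotype effect between m and f headers was 1.25 on the log2 scale for Calcrl, with an edgeR adjusted p of 0.081. This interaction rests on that single m library of APPko, and for the other 7 markers its adjusted p was at least 0.29.

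No accessory protein gene was called in the main edgeR fit, with all 14 libraries and no covariate. Of 10 tested genes of CGRP and adrenomedullin signalling, Calcrl included, 1 was called higher in APPko and none lower, and the median log2 change was 0.022, beside -0.013 for all tested genes. The called gene was Adm2, the peptide adrenomedullin 2 or intermedin, at 2.12 ± 0.691 CPM in APPko and 1.00 ± 0.315 CPM in wildtype, 2.13-fold higher by the fitted change (edgeR adjusted p = 0.045). Adm2 lost its call without wildtype libraries 2 and 3 (log2 change 0.92, edgeR adjusted p = 0.21) and kept it in 4 of 14 fits that left out 1 library. Ramp1 averaged 151 ± 22.1 CPM in APPko and 121 ± 17.8 CPM in wildtype (edgeR adjusted p = 0.12). Ramp2 averaged 12.8 ± 2.68 CPM in APPko and 8.60 ± 2.40 CPM in wildtype (edgeR adjusted p = 0.074). Neither passed in the main edgeR fit. Ramp2 was called in 4 of 11 other settings, DESeq2 among them (adjusted p = 0.024). It was also called in 1 of 14 fits that left out 1 library. Calca and Calcb, which encode the alpha and beta forms of CGRP, were not called either, at 4.28 ± 0.835 CPM in APPko and 5.28 ± 1.88 CPM in wildtype for Calca.

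Because Calcrl is also made by endothelium, vascular genes were read beside it. Of 14 endothelial and pericyte markers 13 were tested, none was called by edgeR, and 9 of the 13 estimates were positive with a median log2 change of 0.36. The summed level, in contrast, ran from 103 to 174 CPM in APPko and from 128 to 217 CPM in wildtype. Most of that sum came from the pericyte marker Rgs5, at 92.8 ± 17.5 CPM in APPko and 122 ± 37.1 CPM in wildtype. The smallest p was that of Pdgfrb, another pericyte gene, at 7.23 ± 1.24 CPM in APPko and 4.37 ± 1.77 CPM in wildtype (log2 change 0.73, edgeR adjusted p = 0.069). The endothelial genes differed in level. Cldn5 averaged 1.05 ± 0.521 CPM in APPko and 0.577 ± 0.255 CPM in wildtype, and Pecam1 1.46 ± 0.759 CPM in APPko and 1.15 ± 0.239 CPM in wildtype. Flt1 averaged 9.58 ± 2.00 CPM in APPko and 9.91 ± 3.15 CPM in wildtype, and Emcn 7.28 ± 2.61 CPM in APPko and 5.45 ± 1.40 CPM in wildtype. No gene of that list was at 0 in every library. Across the 14 libraries, with genotype means removed, Calcrl and the vascular score had a Pearson r of -0.31 (permutation p = 0.22, adjusted p = 0.72 over 64 such relations). The Spearman rho was -0.38 (permutation p = 0.19). The r was -0.33 without the 2 libraries farthest from the median score and -0.074 without wildtype libraries 2 and 3.

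Drd2 encodes the D2 dopamine receptor, an inhibitory G protein-coupled receptor whose promoter is used to drive Cre in mouse mossy cells (chr9:49340627-49408177). It was the rarest of the 8, with 8 to 46 counts per library. The lowest, median and highest levels were 0.296, 0.981 and 1.62 CPM in APPko, against 0.481, 0.815 and 1.24 CPM in wildtype. APPko libraries lay on both sides of the wildtype range, 2 above and 2 below. The mean was 0.928 ± 0.484 CPM in APPko and 0.861 ± 0.266 CPM in wildtype, with a log2 change of 0.11 (95% interval -0.66 to 0.88, edgeR adjusted p = 0.91). Counting alone gives a coefficient of variation of about 20.3% in APPko and 23.6% in wildtype, where 52.1% and 30.9% were observed in APPko and wildtype. The interval of Drd2 was the widest of the 8 and includes the estimates of all other markers.

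None of the 8 tested genes among 12 of dopamine signalling, Drd2 included, was called. The smallest p belonged to Ppp1r1b, the dopamine-regulated phosphatase inhibitor DARPP-32, with 5.80 ± 1.12 CPM in APPko and 3.82 ± 1.33 CPM in wildtype (edgeR adjusted p = 0.093). The D1 receptor gene Drd1 averaged 5.90 ± 2.41 CPM in APPko and 5.38 ± 4.05 CPM in wildtype. The genes for dopamine synthesis and reuptake, Th and Slc6a3, were below the filter with 53 and 69 counts over all 14 libraries.

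Csf2rb2 encodes a beta chain of the mouse interleukin-3 receptor and lies next to its near-identical neighbour Csf2rb, the common beta chain of the interleukin-3, interleukin-5 and GM-CSF receptors (chr15:78282507-78305721 for Csf2rb2). Its lowest, median and highest levels were 4.12, 6.32 and 8.72 CPM in APPko, against 4.52, 6.36 and 11.1 CPM in wildtype. The ranges overlapped, with wildtype libraries 2 and 3 above all APPko libraries and 1 APPko library below all wildtype libraries. The mean was 6.57 ± 1.67 CPM in APPko and 7.13 ± 2.47 CPM in wildtype (log2 change -0.12, 95% interval -0.56 to 0.32, edgeR adjusted p = 0.81). The estimate turned to 0.21 without wildtype libraries 2 and 3, which had the highest Csf2rb2 levels of their genotype.

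Csf2rb averaged 3.45 ± 0.673 CPM in APPko and 3.87 ± 1.44 CPM in wildtype, and it was not called (edgeR adjusted p = 0.73). Of all 151-base windows of the longest Csf2rb2 transcript, 3.55% were identical in Csf2rb, and of all 50-base windows 19.0%. Reads in those stretches could have been split between the copies, so both levels are uncertain to that extent. The counts of Csf2rb2 were 1.18 to 3.13 times those of Csf2rb in APPko libraries and 0.977 to 4.50 times in wildtype libraries. Of 11 genes of this cytokine receptor system 7 were tested and none was called, and 6 of the 7 estimates were negative with a median of -0.12. Jak2, the kinase bound to the common beta chain, had the smallest p, with 28.1 ± 2.45 CPM in APPko and 33.7 ± 4.14 CPM in wildtype (edgeR adjusted p = 0.14). The ligand genes Csf2 and Il3 had 4 and 2 counts over all 14 libraries.

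As myeloid cells are the usual site of this receptor family, microglial genes were read beside Csf2rb2. Of 14 microglia and macrophage markers, 2 were called higher in APPko, Tyrobp at 115 ± 19.7 CPM in APPko and 54.7 ± 27.8 CPM in wildtype, and C1qb at 233 ± 45.01 CPM in APPko and 123 ± 63.6 CPM in wildtype. Their edgeR adjusted p values were 0.028 and 0.047, and without wildtype libraries 2 and 3 they were 0.11 and 0.24, with log2 changes of 0.78 and 0.66 beside 1.07 and 0.92 with them. The summed level of the list ran from 799 to 1379 CPM in APPko and from 600 to 1100 CPM in wildtype. Csf2rb2 and this score had a Pearson r of 0.044 over the 14 libraries (permutation p = 0.88, Spearman rho 0.033 with p = 0.92, r 0.029 without the 2 libraries farthest from the median score). The r was 0.49 within APPko and -0.47 within wildtype, and 0.42 over both without wildtype libraries 2 and 3.

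Nmb encodes neuromedin B, a secreted bombesin-like peptide (chr7:80902227-80905076). Its lowest, median and highest levels were 2.50, 3.36 and 5.04 CPM in APPko, against 2.15, 2.52 and 4.77 CPM in wildtype. A single wildtype library, number 3, reached the upper APPko values, and the other 5 lay at or below 2.76 CPM. The mean was 3.44 ± 0.785 CPM in APPko and 2.84 ± 0.964 CPM in wildtype, with a log2 change of 0.27 (95% interval -0.16 to 0.70, edgeR adjusted p = 0.49). Without wildtype library 3 the log2 change was 0.50 (edgeR adjusted p = 0.20), and without wildtype libraries 2 and 3 it was 0.47 (edgeR adjusted p = 0.36). The exons of Nmb share 163 bases, 20.6% of their length, with Sec11a on the same strand, and reads there cannot be told apart by strand. Its receptor gene Nmbr averaged 3.97 ± 0.346 CPM in APPko and 4.75 ± 1.15 CPM in wildtype (edgeR adjusted p = 0.36). None of the 4 tested genes among 5 bombesin-like peptides and receptors was called; Grp, the gastrin-releasing peptide gene, averaged 39.5 ± 12.6 CPM in APPko and 32.1 ± 7.00 CPM in wildtype.

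Ajap1 encodes a single-pass membrane protein of adherens junctions that, like the App protein and Pianp, binds a sushi domain of the GABA-B receptor (chr4:153373221-153482811). The lowest, median and highest levels were 30.7, 37.1 and 54.6 CPM in APPko, against 26.6, 38.8 and 40.9 CPM in wildtype. The bulk of both groups lay together, with APPko library 3 above and wildtype library 4 below them. The mean was 38.7 ± 7.09 CPM in APPko and 37.0 ± 5.33 CPM in wildtype. The log2 change of 0.064 had the narrowest interval of the 8 markers, -0.20 to 0.33 (edgeR adjusted p = 0.83). Among 9 tested genes of GABA-B receptor subunits, sushi-domain ligands and auxiliary proteins, counted without App, 1 was called lower in APPko and none higher. That gene was Kctd8, an auxiliary subunit, at 3.38 ± 0.424 CPM in APPko and 5.68 ± 1.06 CPM in wildtype (log2 change -0.75, edgeR adjusted p = 0.025). It kept its call in 10 of 14 fits that left out 1 library, and without wildtype libraries 2 and 3 its log2 change was -0.69 (edgeR adjusted p = 0.091). Pianp, with 23.3 ± 2.40 CPM in APPko and 21.5 ± 4.12 CPM in wildtype, was not called (edgeR adjusted p = 0.63). The receptor subunit gene Gabbr1 averaged 151 ± 14.3 CPM in APPko and 135 ± 30.4 CPM in wildtype (edgeR adjusted p = 0.49).

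Bok had the smallest p of the 8 markers. It encodes a pro-apoptotic member of the BCL2 family that can permeabilise the outer mitochondrial membrane (chr1:93685660-93695764, plus strand). Its lowest, median and highest levels were 32.6, 40.9 and 70.8 CPM in APPko, against 17.4, 27.9 and 41.9 CPM in wildtype. The ranges overlapped between 32.6 and 41.9 CPM, and 3 of 8 APPko libraries lay above all wildtype libraries. The mean was 47.0 ± 13.5 CPM in APPko and 29.7 ± 9.01 CPM in wildtype, a log2 change of 0.66 (SE 0.20, 95% interval 0.24 to 1.07) or 1.58-fold. The unadjusted p was 0.0036 and the edgeR adjusted p 0.075, above the threshold of 0.05.

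The call of Bok depended on the fit. DESeq2 called it (adjusted p = 0.024), and so did edgeR with the header suffix as a covariate (log2 change 0.74, adjusted p = 0.049), a fit that called 6.53% of all tested genes. In libraries with f headers alone the log2 change was 0.70 with an edgeR adjusted p of 0.094. Over the fits that left out 1 library it ran from 0.54 to 0.79, always positive, and passed without wildtype library 1 (edgeR adjusted p = 0.036) or wildtype library 4 (edgeR adjusted p = 0.041). These fits called 4.25% and 6.36% of all tested genes. Without wildtype libraries 2 and 3 the log2 change was 0.47 (edgeR adjusted p = 0.36).

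**Figure D2:**
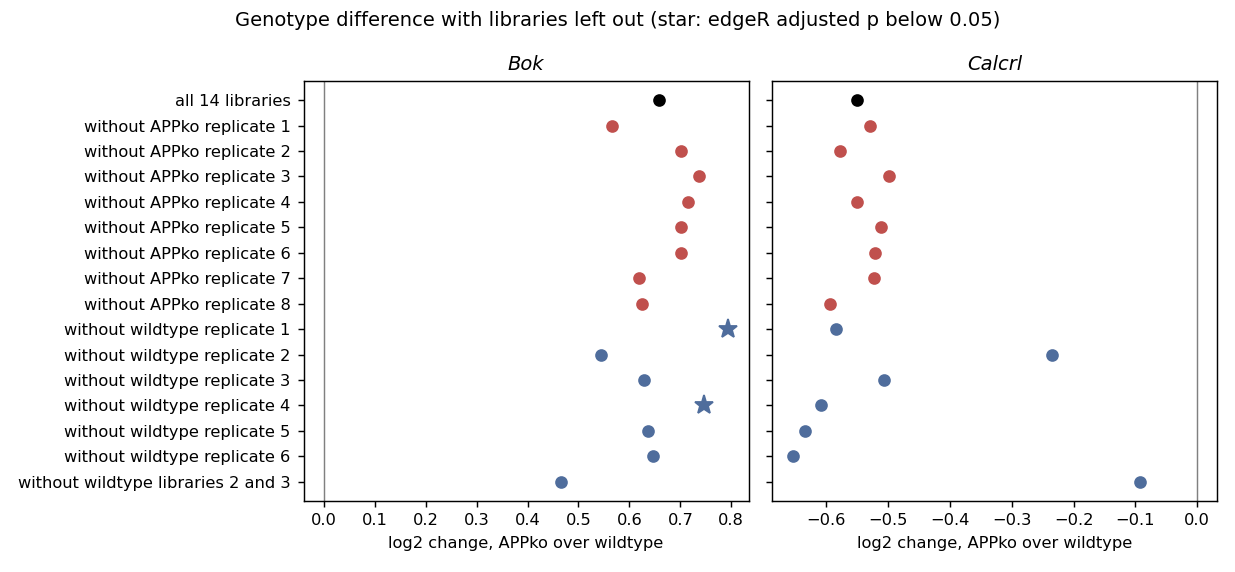
Log2 change (APPko over wildtype) of Bok, left, and Calcrl, right, with all 14 libraries (black), without each APPko library (red), and without each wildtype library or without wildtype libraries 2 and 3 (blue); stars mark an edgeR adjusted p below 0.05. Bok stays between 0.47 and 0.79, whereas Calcrl moves to -0.24 without wildtype library 2.

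As the plot of changes with libraries left out shows, the estimate for Bok was spread over many libraries and that for Calcrl was not. Of 14 genes of the BCL2 family 13 were tested, Bok included. None was called in the main edgeR fit, with all 14 libraries and no covariate. Their median log2 change was 0.017, beside -0.013 for all tested genes. The other membrane-permeabilising members were not called either. Bax averaged 57.03 ± 7.41 CPM in APPko and 54.7 ± 16.0 CPM in wildtype (edgeR adjusted p = 0.88), and Bak1 0.562 ± 0.208 CPM in APPko and 0.703 ± 0.606 CPM in wildtype (edgeR adjusted p = 0.77). The sensitizer Bad, with 36.9 ± 5.18 CPM in APPko and 27.2 ± 7.69 CPM in wildtype, came next after Bok in p (edgeR adjusted p = 0.12).

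Iyd encodes iodotyrosine deiodinase, which recovers iodide from iodotyrosines in the thyroid (chr10:3540240-3554877). The lowest, median and highest levels were 1.89, 2.58 and 3.56 CPM in APPko, against 2.20, 3.47 and 6.05 CPM in wildtype. The ranges overlapped, with 3 of 8 APPko libraries below all wildtype libraries. The mean was 2.66 ± 0.616 CPM in APPko and 3.71 ± 1.45 CPM in wildtype, with a log2 change of -0.47 (95% interval -0.95 to 0.00, edgeR adjusted p = 0.25). Without wildtype library 6, which had the highest level, the log2 change was -0.28 (edgeR adjusted p = 0.50). Of 11 genes of thyroid hormone and iodide handling 9 were tested and none was called. Dio2, which activates thyroid hormone in astrocytes, had the smallest p, with 11.6 ± 2.50 CPM in APPko and 15.6 ± 2.81 CPM in wildtype (edgeR adjusted p = 0.13). The thyroid hormone receptor gene Thrb averaged 29.8 ± 8.41 CPM in APPko and 42.5 ± 10.8 CPM in wildtype (edgeR adjusted p = 0.14).

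Glipr1 encodes a member of the CAP superfamily of cysteine-rich proteins (chr10:111985448-112002631, minus strand). Its lowest, median and highest levels were 5.67, 7.67 and 11.1 CPM in APPko, against 3.498, 6.66 and 11.5 CPM in wildtype. The wildtype range enclosed that of APPko, with wildtype libraries 2 and 3 at its top. The mean was 7.92 ± 1.67 CPM in APPko and 7.28 ± 3.54 CPM in wildtype (log2 change 0.12, 95% interval -0.40 to 0.63, edgeR adjusted p = 0.84). Without wildtype libraries 2 and 3 the log2 change was 0.59 (unadjusted p = 0.0125, edgeR adjusted p = 0.26), and it was 0.28 without library 2 and 0.31 without library 3. The exons of Glipr1 share 352 bases, 22.8% of their length, with Krr1 on the opposite strand, and whether the counting used strand is not given in the sources used here. Of 12 CAP superfamily genes 7 were tested, with 1 called higher and 1 lower. Glipr2 was higher in APPko, at 14.7 ± 2.88 CPM in APPko and 9.02 ± 1.90 CPM in wildtype (1.62-fold, edgeR adjusted p = 0.030). Crispld1 was lower in APPko, at 3.95 ± 0.951 CPM in APPko and 6.81 ± 1.17 CPM in wildtype (log2 change -0.78, edgeR adjusted p = 0.031). Without wildtype libraries 2 and 3 the log2 change of Glipr2 was 0.62 and that of Crispld1 -0.82, beside 0.70 and -0.78 with them, and the edgeR adjusted p values were 0.14 and 0.083.

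**Figure D3:**
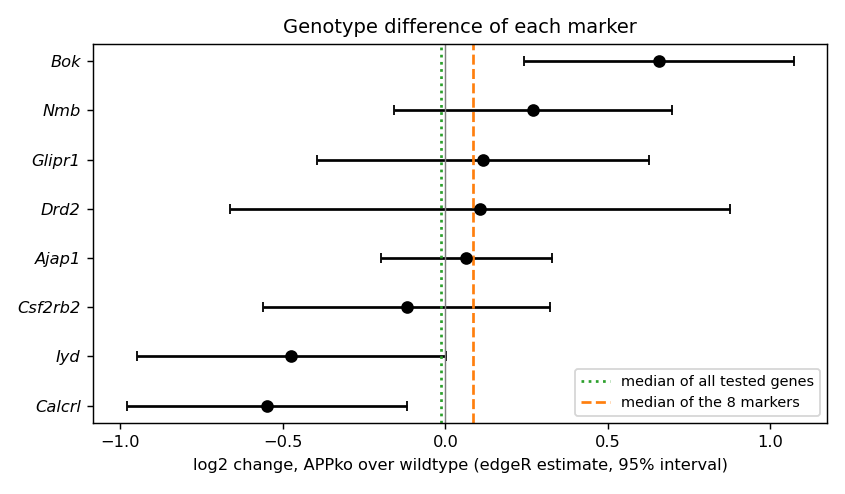
Log2 change (APPko over wildtype) of each of the 8 markers with its 95% interval from edgeR; the dashed line is the median of the 8 markers (0.086) and the dotted line that of all tested genes (-0.013). The intervals of Bok and Calcrl lie on opposite sides of 0, and those of the other 6 markers include it.

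The plot of changes with their intervals places Bok at one end and Calcrl and Iyd at the other. Another 6 genes known from mossy cells, Calb2, Gria3, Cartpt, Ociad2, Calca and Calcb, were also read. None was called, 5 of the 6 estimates were negative, and their median log2 change was -0.31, beside 0.086 for the 8 markers and -0.013 for all tested genes. The smallest p was that of Cartpt, the neuropeptide precursor, at 0.953 ± 0.314 CPM in APPko and 1.75 ± 0.513 CPM in wildtype (log2 change -0.87, edgeR adjusted p = 0.079). Gria3, an AMPA receptor subunit, averaged 161 ± 21.6 CPM in APPko and 198 ± 23.6 CPM in wildtype (edgeR adjusted p = 0.12). Calb2, which encodes calretinin and marks mossy cells in mice as well as some interneurons and young granule cells, averaged 141 ± 60.8 CPM in APPko and 139 ± 89.1 CPM in wildtype (edgeR adjusted p = 0.99).

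Whether the 8 markers varied together between libraries was examined next. Pearson correlations of log2 CPM were computed over the 14 libraries with genotype means removed, so that each point is a library and both genes of a pair share its depth and scaling. None of the 28 pairs passed an adjusted p of 0.05, by Pearson or by Spearman correlation. 12 pairs had a positive and 16 a negative r, from -0.60 to 0.70, with a median of -0.085.

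The highest r, 0.70, joined Calcrl and Glipr1 (permutation p = 0.026, Spearman rho 0.68 with p = 0.025, adjusted p = 0.19 and 0.23 over the 28 pairs). It was 0.53 without the 2 libraries farthest from the median of Calcrl and 0.33 without wildtype libraries 2 and 3. Among all tested genes, 91.7% had a lower r with Calcrl than Glipr1 had, and 8.27% had an r above 0.7 with it. Csf2rb2 had an r of 0.61 with Calcrl, 0.62 with Glipr1 and 0.58 with Nmb (permutation p = 0.032, 0.040 and 0.039, adjusted p = 0.19 for all 3). The Spearman rho of these pairs was 0.46, 0.50 and 0.64, and r without the 2 libraries farthest from the median was 0.37, 0.58 and 0.47. Without wildtype libraries 2 and 3 their r was 0.097, 0.27 and 0.77. The lowest r, -0.60, joined Csf2rb2 and Bok (permutation p = 0.034, Spearman rho -0.67 with p = 0.015, adjusted p = 0.19 and 0.23), and it was -0.63 without the 2 libraries farthest from the median of Csf2rb2 and -0.36 without wildtype libraries 2 and 3.

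**Figure D4:**
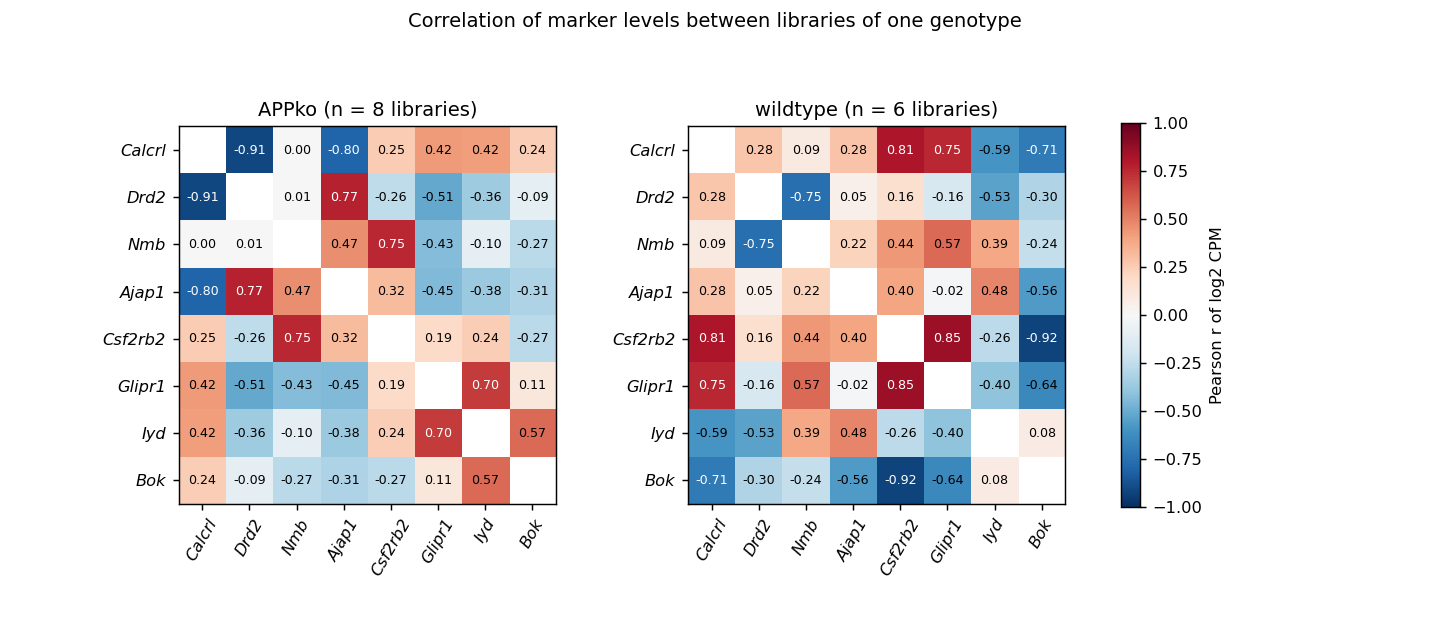
Pearson r of log2 CPM for each pair of the 8 markers over the 8 APPko libraries (left) and the 6 wildtype libraries (right), from -1 (blue) to 1 (red). Calcrl and Drd2 have an r of -0.91 in APPko and 0.28 in wildtype, and Csf2rb2 and Bok -0.27 in APPko and -0.92 in wildtype.

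Within a genotype, as the maps of pairwise correlation show, the patterns were not alike. In APPko, Drd2 and Ajap1 had an r of 0.77 with each other, and Calcrl had -0.91 with Drd2 and -0.80 with Ajap1, each over the same 8 libraries. APPko library 3 had the lowest Calcrl level of these libraries and the highest Drd2 and Ajap1 levels. APPko library 8, the only m library of its genotype, had the highest Calcrl level and the lowest Drd2 and Ajap1 levels, with 8 Drd2 counts. The r within APPko was not computed without these libraries. For Calcrl and Drd2 the exact permutation p over the 8 APPko libraries was 0.0020, with an adjusted p of 0.056 over the 28 pairs. In wildtype the r of that pair was 0.28, and the difference between the genotypes was not tested. In wildtype, Csf2rb2 had an r of 0.85 with Glipr1, 0.81 with Calcrl and -0.92 with Bok (exact permutation p = 0.0097 for Bok, adjusted p = 0.27, 6 libraries).

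Wildtype library 2, which had the highest Calcrl and Csf2rb2 levels and the lowest Bok level, weighed on the pooled values. Without it, 2 of the 28 pairs passed. Calcrl and Drd2 then had an r of -0.74 and Nmb and Csf2rb2 an r of 0.82, both with a permutation adjusted p of 0.012. Without wildtype libraries 2 and 3 the same pairs had an r of -0.75 and 0.77, with an adjusted p of 0.072 for both. The pairs had opposite signs, and one of them involves Drd2, the gene with the fewest counts.

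Each marker was also set against scores of other cell types, the mean centred log2 CPM of a marker list per library. None of these 64 relations passed an adjusted p of 0.05. The highest r was that of Iyd with the granule cell score, 0.75 (permutation p = 0.011, Spearman rho 0.74 with p = 0.0073, adjusted p = 0.34 for both). It was 0.57 without the 2 libraries farthest from the median of the score, 0.59 within APPko and 0.82 within wildtype. The lowest was that of Ajap1 with the microglia and macrophage score, -0.72 (permutation p = 0.0082, Spearman rho -0.66 with p = 0.011, adjusted p = 0.34 for both). It was -0.59 without the 2 libraries farthest from the median of the score and -0.70 without wildtype libraries 2 and 3. Calcrl and the same score had an r of -0.059 over the 14 libraries, 0.87 within APPko and -0.50 within wildtype. Without wildtype libraries 2 and 3 the r of Calcrl with this score was 0.72 (permutation p = 0.013, adjusted p = 0.4).

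**Figure D5:**
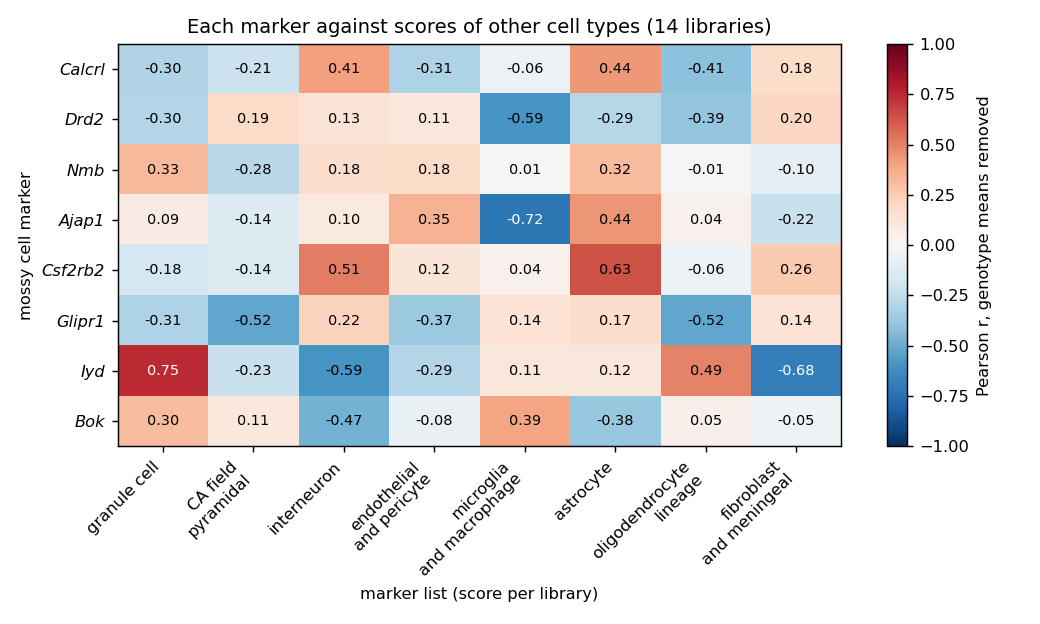
Pearson r between the log2 CPM of each marker (rows) and the score of each cell type list (columns) over 14 libraries, with genotype means removed. Iyd with granule cells (0.75) and Ajap1 with microglia and macrophages (-0.72) are the most extreme cells, and Calcrl with the vascular list is at -0.31.

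The map of markers against cell type scores shows no list that all 8 markers followed. Levels of the lists themselves were read beside the markers, and they do not measure cell numbers. Summed granule cell markers ran from 631 to 1057 CPM in APPko and from 876 to 1432 CPM in wildtype, with 2 of 12 called lower in APPko. These were Rfx3, at 126 ± 16.3 CPM in APPko and 180 ± 29.8 CPM in wildtype, and C1ql3, at 17.9 ± 4.84 CPM in APPko and 30.7 ± 9.71 CPM in wildtype, with edgeR adjusted p values of 0.031 and 0.047. Without wildtype libraries 2 and 3 these values were 0.17 and 0.30, with log2 changes of -0.36 and -0.53 beside -0.52 and -0.78 with them. The largest part of the granule cell sum was Calb1, at 277 ± 89.6 CPM in APPko and 454 ± 184 CPM in wildtype (edgeR adjusted p = 0.14). Estimates were negative for 10 of the 12 granule cell markers and positive for 2. That of Prox1 was -0.059 (edgeR adjusted p = 0.89).

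No gene was called in the lists of CA field pyramidal, interneuron, astrocyte, oligodendrocyte lineage or fibroblast and meningeal markers. Their genes with the smallest p were Grik4, Pvalb, Gja1, Pdgfra and Vtn, with edgeR adjusted p values of 0.15, 0.090, 0.10, 0.47 and 0.32. Summed CA field markers ran from 217 to 281 CPM in APPko and from 230 to 292 CPM in wildtype. Most of that sum came from Cpne4, at 159 ± 13.8 CPM in APPko and 157 ± 37.8 CPM in wildtype. The log2 changes of the 14 CA field markers ran from -1.12 to 0.51. Whether the sum reflects hippocampal tissue cut along with the hilus was not tested. Whether any of these levels contributed to the marker levels was not tested.

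For the 7 markers with a mean of at least 1 CPM, the genes most like each were sought among 17339 genes by Pearson r of log2 CPM over the 14 libraries, genotype means removed. Calcrl was most like Hpgds (0.96), Dnajc24 (0.96) and Pip4p2 (0.94), and Glipr1 was most like 4930447M23Rik (0.95), Cog6 (0.95) and Tmx1 (0.95). Csf2rb2 was most like Lrrc1 (0.92), Gm14966 (0.90) and Hexim2 (0.90). Bok was most like Plxna1 (0.92), Ttll11 (0.88) and Josd1 (0.87), and Ajap1 was most like Samhd1 (0.90), Gm26645 (0.89) and Prob1 (0.88). Nmb was most like Setd1b (0.89), Scn3a (0.83) and Fyco1 (0.83). Iyd was most like Lratd2 (0.84), Rph3a (0.84) and Peg12 (0.83). Within APPko the r of Iyd with these 3 genes was 0.77, 0.57 and 0.38, against 0.88, 0.945 and 0.98 within wildtype. Calcrl and Glipr1 had an r above 0.7 with 8.27% and 8.61% of all other tested genes, against at most 1.99% for each other marker. Both had their highest levels in wildtype libraries 2 and 3. The other markers were left out of these ranks, which are a description of the 14 libraries.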

How the data were processed

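The authors deposited a table of raw counts by gene symbol for each library. The submitters' processing notes name cutadapt 3.5, STAR 2.7.8a, featureCounts 2.0.1 and the build GRCm38. Per the labels' protocols, low-input cDNA was amplified and libraries were read as 151 bp pairs, without molecular identifiers, so reads are not independent molecules. How strand and multi-mapping reads were handled is not given in the sources used here. Positions and exon lengths were read from the authors' deposited annotation.

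From these counts, filterByExpr and TMM were applied, and APPko was tested against wildtype with the quasi-likelihood method (edgeR 4.0.16, R 4.3.3) with Benjamini-Hochberg adjustment over 22150 genes at 0.05. Correlations used log2 CPM (prior count 2), genotype means removed, and two-sided permutation tests within genotype (100000 resamples, exact within one genotype). All 43 pairs of libraries within a genotype differed beyond counting noise (chi-square per degree of freedom at least 8.78). The APPko against wildtype test was also run on simulated data over 21316 genes. It recovered 25.4% of 1.5-fold changes, 65.7% of 2-fold changes and 90.9% of 4-fold changes, with 6 false calls among 127. Each gene was drawn independently, so the simulated libraries held no deviations shared between genes, and these rates need not hold for the real libraries.

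The markers and gene lists were chosen with earlier results of these data known. Besides the 8 markers, named genes were App, Csf2rb, the genes of each list past the threshold (up to 4) or that with the smallest p, and the 3 genes most like each marker. Ramp1, Ramp2, Calca, Calcb, Drd1, Grp, Pianp, Gabbr1, Bax, Bak1, Bad, Thrb, Gria3, Calb2, Ociad2, Rgs5, Cldn5, Pecam1, Flt1, Emcn, Calb1, Prox1, Cpne4 and list genes below the filter were named after their values were seen. Alternatives were RLE and upper quartile scaling, DESeq2 1.42.0, limma's voom (limma 3.58.1), other filters, a replicate block, the header suffix as a covariate, a prior count of 0.5, correlations within a genotype, and libraries left out; f libraries alone were added after seeing the data, as was the suffix interaction.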

Additional observations from a re-analysis of the deposited data

Results flagged for a closer look

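In 4 of 16 groups, the 8 markers in each genotype, the highest or lowest library stood farther from its neighbour than Dixon's 95% critical value allows, which chance gives in about 1 of 20 groups. For Calcrl, wildtype library 2 stood at 58.8 CPM, above the next wildtype library at 32.6 CPM. For Nmb, wildtype library 3 stood at 4.77 CPM, above the next at 2.76 CPM. For Ajap1, APPko library 3 stood at 54.6 CPM, above the next at 41.0 CPM, and wildtype library 4 at 26.6 CPM, below the next at 36.9 CPM.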

How the results depend on the processing

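Depth limits Drd2 most, at 8 to 46 counts per library. Genes called higher and lower in APPko numbered 209 and 312, against 737 and 1028 with DESeq2, 718 and 728 with the suffix as a model term, 1674 and 1998 in f libraries alone, and 19 and 16 without wildtype libraries 2 and 3. Lower genes numbered 170 with limma's voom and 170 with no expression filter. Leaving out 1 library gave 22 to 735 higher and 16 to 701 lower genes. The deviations of same-numbered libraries from their genotype means had correlations of -0.34 to 0.19. Libraries of unlike number were not compared, so these values cannot tell whether the numbers pair the samples. With the replicate number as a block over replicates 1 to 6, 9 genes were higher and 11 lower, against 12 and 15 in the same libraries with no block. Markers called numbered 1 with DESeq2, 1 with the header suffix and 1 in f libraries alone, and 0 to 1 with 1 library left out. Their median log2 change was -0.089 with the header suffix, -0.059 in f libraries alone and -0.022 to 0.15 with 1 library left out. Estimates near 0 changed sign. Drd2 was at -0.018 with voom, -0.14 with the header suffix and -0.037 to 0.25 with 1 library left out. Ajap1 was at -0.038 with the header suffix and -0.017 to 0.11 with 1 library left out. Csf2rb2 was at 0.21 without wildtype libraries 2 and 3 and -0.21 to 0.051 with 1 left out. Glipr1 was at -0.031 with the header suffix and -0.12 in f libraries alone, but 0.48 with voom (adjusted p = 0.29) and 0.59 without wildtype libraries 2 and 3, and -0.012 to 0.31 with 1 left out. Nmb was at 0.19 to 0.50 and Iyd at -0.59 to -0.28 with 1 left out. Csf2rb was at 0.18 with voom and 0.069 without wildtype libraries 2 and 3. Between 0 and 2 marker pairs passed with 1 library left out, and no relation to a cell type score passed in any setting run. The cause of these differences was not tested. DESeq2 gave no adjusted p for Drd2, a filter of at least 1 CPM removed it, and removing suffix means from the correlations left out APPko library 8, the only m library of its genotype.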
